A study of Rattus norvegicus with 12 samples.

Results

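The genes described here are 8 genes of retinoid metabolism and response in rat kidney, Rdh10, Aldh1a1, Aldh1a2, Dhrs3, Cyp26b1, Crabp2, Rara and Rarres1, out of 14217 genes that the arrays measured under a single symbol. They were chosen by name, with earlier results of these data known. Every probe set that carried only such a symbol was taken, which gave 10 of 20826 single-symbol probe sets. A probe set is the group of short probes that reads 1 transcript region, and Rdh10 and Cyp26b1 had 2 each. None of the probe sets with several symbols named a member.

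The samples were kidneys of rats of 4 strains at 30 days of age, all fed the 5LOD diet. SD is the outbred Sprague Dawley stock without the Pkhd1 mutation. PCK arose from that stock and is mutated in Pkhd1, whose human counterpart causes recessive polycystic kidney disease. FHH (Fawn Hooded Hypertensive) is an inbred strain. Its congenic FHH.Pkhd1, in full FHH.PCK-(D9Rat35-D9Rat70)/Mcwi, holds a PCK segment of chromosome 9 with the mutated gene on the FHH background. Kidney RNA (both kidneys) of 6 animals per strain went into 1 pool, which was read on 3 Affymetrix arrays, 12 arrays in all, so the arrays of a pool are technical replicates. Every standard deviation (SD of n = 3 arrays), standard error (SE) and p-value below therefore measures the spread between arrays of a pool and says nothing of the spread between animals.

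Retinoic acid is a vitamin A derivative that controls gene activity through nuclear receptors, and it helps to pattern the collecting system of the developing kidney. Retinol is oxidised to retinaldehyde by Rdh10, and retinaldehyde to retinoic acid by Aldh1a1 and Aldh1a2, while Dhrs3 reduces retinaldehyde back to retinol. Crabp2 carries retinoic acid towards the nucleus, Rara is one of its receptors, Cyp26b1 degrades it, and Rarres1 was named for its induction by a synthetic retinoid.

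Signals are log2 values, so a difference of 1 is a doubling. A probe set was tested if at least 1 pool mean was at or above 5.75, here called the detection level, which is the 40th percentile over all arrays and probe sets. A call of higher or lower needs a limma adjusted p under 0.05 together with a difference of at least 1.5-fold. Array medians ran from 6.41 to 6.46, and arrays of 1 pool correlated at 0.9973 to 0.9985 over probe sets. Of 10 member probe sets 8, of 7 genes, were tested, and all 8 were above the detection level in every pool. The other two were the only probe set of Crabp2 and one probe set of Rdh10. The kidney labels were borne out by the 7 proximal tubule markers, whose mean signal was 12.02 to 12.12 on every array. Poly-A spike-ins, which are added before labelling, differed between the pools by up to 1.10 (log2), and the 3' minus 5' signal of beta-actin by up to 0.28.

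**Figure D1:**
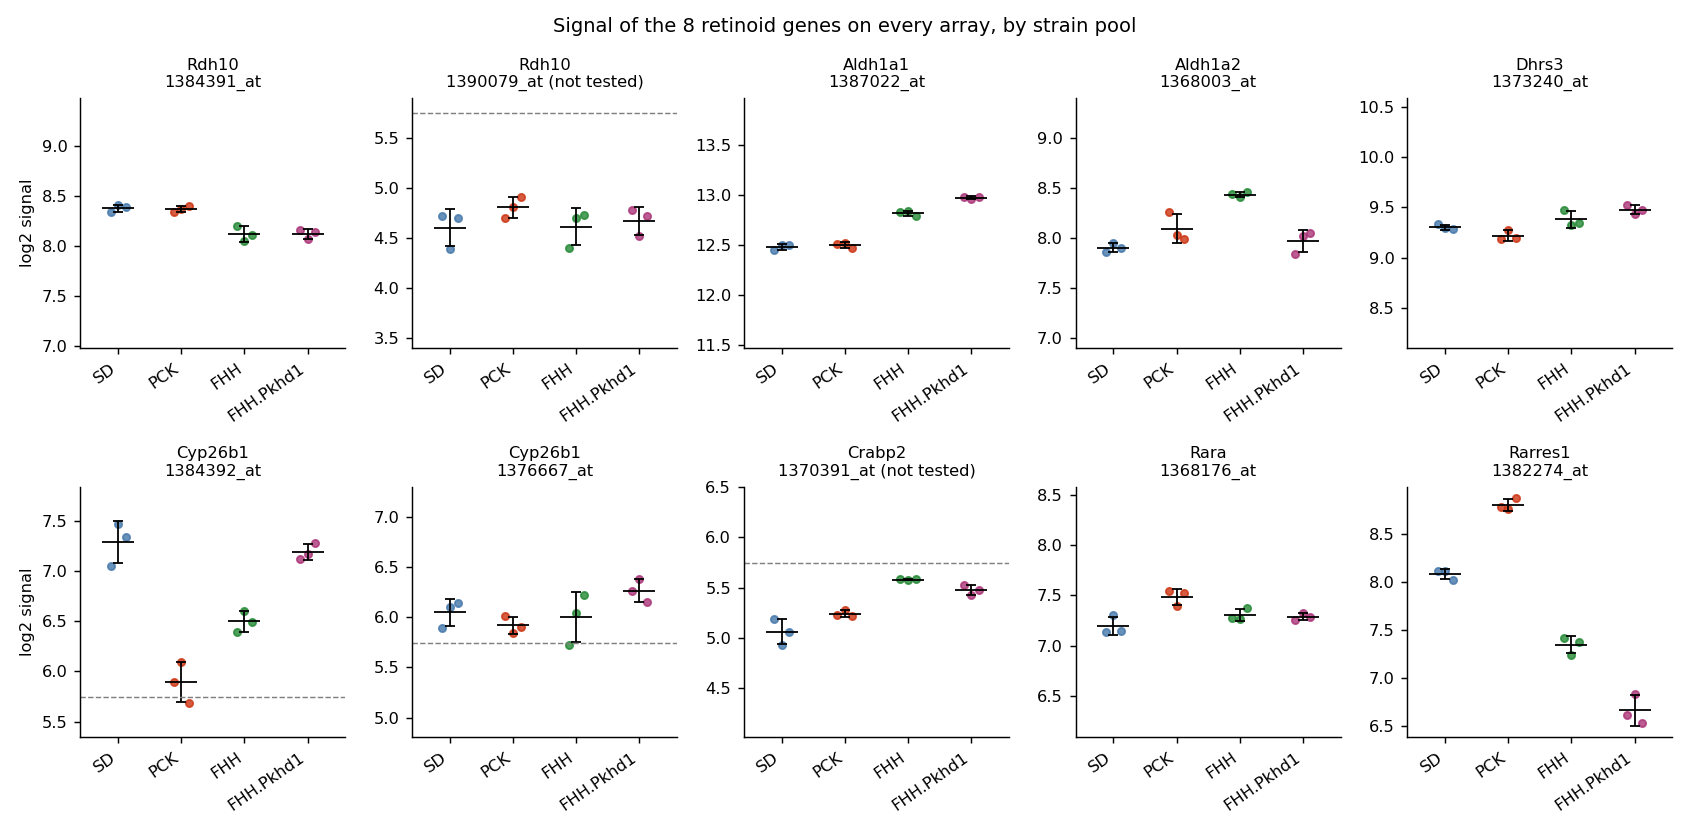
Log2 signal of the 10 member probe sets on each of the 12 arrays (points), by strain pool, with the pool mean and SD over 3 arrays (bars). Each panel has its own range, and the dashed line is the detection level of 5.75. Rarres1 runs from 6.53 to 8.87 and Cyp26b1 (1384392_at) from 5.69 to 7.47, while the other panels span much less.

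Rarres1 and Cyp26b1 separated the pools most. Rarres1, a membrane glycoprotein gene of retinoid response, was highest in PCK and lowest in FHH.Pkhd1, 4.41-fold apart. Cyp26b1, the cytochrome P450 that clears retinoic acid, was lowest in PCK by both of its probe sets. By one of them it was highest in SD, 2.63-fold above PCK, and by the other the pools differed much less. In bulk kidney, fewer cells of a type and less RNA per cell cannot be told apart, for these and all genes below.

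The 250 bases before the start of each of these genes are shown because the pair moved against each other between PCK and FHH.Pkhd1. They come from RefSeq, build GRCr8, 5′ to 3′ on the gene's strand (the minus strand for both), in lower case. Capitals mark matches on either strand to the GC box (GGGCGG), to the TATA box (TATAAA), to the CCAAT box or to the receptor core site (AGGTCA).
Rarres1 (chr2:154094022-154094271): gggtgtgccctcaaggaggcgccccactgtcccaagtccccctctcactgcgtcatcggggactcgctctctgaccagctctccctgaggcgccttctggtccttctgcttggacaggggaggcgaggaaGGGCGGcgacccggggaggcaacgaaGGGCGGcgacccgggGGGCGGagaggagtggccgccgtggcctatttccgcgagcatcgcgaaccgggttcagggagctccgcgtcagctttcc
Cyp26b1 (chr4:118616177-118616426): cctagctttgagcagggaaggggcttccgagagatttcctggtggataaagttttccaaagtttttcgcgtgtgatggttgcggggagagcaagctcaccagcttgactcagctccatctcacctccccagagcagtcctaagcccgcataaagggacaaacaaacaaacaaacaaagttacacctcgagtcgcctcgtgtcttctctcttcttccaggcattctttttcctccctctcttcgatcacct
The Rarres1 window held 3 matches to GGGCGG (the GC box), a motif found in 30.5% of 33469 promoter windows of this length. The Cyp26b1 window held no match to any motif searched. The GC content was 69.2% for Rarres1 and 50.4% for Cyp26b1, against a median of 51.2% over all promoters. Of the 8 genes 7 had a promoter entry, and none of those 7 lay on chromosome 9, which carries the congenic segment. Retinoic acid receptors bind pairs of that core site. The pair spaced by 5 bases, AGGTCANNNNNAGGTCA, was in 0.00896% of all promoters, the pair spaced by 2, AGGTCANNAGGTCA, in 0 of 33469, and a lone AGGTCA, which those pairs also hold, in 14.1%. None of the 7 member promoters held any of them, which says only that these letters are not in these windows.

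Rarres1 (1382274_at) was read at 8.11, 8.11 and 8.02 in SD and at 8.78, 8.75 and 8.87 in PCK. In FHH it was at 7.41, 7.24 and 7.37, and in FHH.Pkhd1 at 6.61, 6.84 and 6.53. No pool overlapped another, and the order was FHH.Pkhd1, FHH, SD, PCK from low to high, with neighbours 0.68 to 0.74 apart. Rarres1 rose in PCK against SD by 0.72 ± 0.073 (SE; 1.65-fold, limma adjusted p = 1.42e-05). It fell in FHH.Pkhd1 against FHH (-0.68 ± 0.073, 1.60-fold, limma adjusted p = 5.27e-05). SD also exceeded FHH by 0.74 ± 0.073 (limma adjusted p = 1.26e-05), so both strains of SD origin stood above both on the FHH background. Between the strains that carry the mutation, PCK was higher by 2.14 ± 0.073 (95% interval 1.98 to 2.30, limma adjusted p = 5.22e-10), and 0.398% of the tested probe sets differed by more.

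Cyp26b1 by 1384392_at was at 7.06, 7.47 and 7.34 in SD and at 5.90, 6.09 and 5.69 in PCK. The values were 6.39, 6.61 and 6.50 in FHH and 7.12, 7.17 and 7.28 in FHH.Pkhd1. SD and FHH.Pkhd1 overlapped (means 0.099 apart), FHH lay below both, and PCK lay below all, with 1 of its 3 arrays under the detection level. This probe set fell in PCK against SD (-1.40 ± 0.11, 2.63-fold, limma adjusted p = 1.88e-06). It rose in FHH.Pkhd1 against FHH by 0.69 ± 0.11 (1.61-fold, limma adjusted p = 0.00107). It was lower in PCK than in FHH.Pkhd1 (-1.30 ± 0.11, limma adjusted p = 1.95e-06) and higher in SD than in FHH by 0.79 ± 0.11 (limma adjusted p = 0.000213).

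The second Cyp26b1 probe set, 1376667_at, differed much less. Its arrays were at 5.90, 6.11 and 6.14 in SD, 6.01, 5.84 and 5.90 in PCK, 5.73, 6.05 and 6.22 in FHH, and 6.26, 6.38 and 6.15 in FHH.Pkhd1. SD, PCK and FHH overlapped one another, and of the 4 comparisons of pools only PCK against FHH.Pkhd1 had separate arrays. The differences were -0.13 ± 0.11 in PCK minus SD (95% interval -0.37 to 0.11) and 0.27 ± 0.11 in FHH.Pkhd1 minus FHH (0.025 to 0.51), with limma adjusted p = 0.417 and 0.114. Both had the sign of the first probe set, as did SD minus FHH (0.050) and PCK minus FHH.Pkhd1 (-0.35, limma adjusted p = 0.0213, 1.27-fold). With the mean of both probe sets, the gene stayed called in PCK minus SD (-0.76) and PCK minus FHH.Pkhd1 (-0.82), but not in FHH.Pkhd1 minus FHH (0.48) or SD minus FHH (0.42).

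A quality measure moved with the pools too, the 3' minus 5' signal of beta-actin, which depends on how intact the RNA is. It was 1.10 ± 0.028 in SD, 1.33 ± 0.020 in PCK, 1.39 ± 0.018 in FHH and 1.20 ± 0.017 in FHH.Pkhd1 (SD, n = 3). PCK minus SD was 0.23 and FHH.Pkhd1 minus FHH was -0.19, the signs of Rarres1 and Aldh1a2 and the reverse of Cyp26b1 (two-sided exact permutation p = 0.1 each, the smallest that 3 arrays against 3 allow). PCK minus FHH.Pkhd1 was 0.13 and SD minus FHH was -0.28, where Rarres1 had the opposite sign in the latter while Aldh1a2 kept the sign and Cyp26b1 the reverse sign in both. The same measure of GAPDH (0.16 and -0.082 in the Pkhd1 comparisons) and the poly-A spike-ins (0.35 and -1.10) shared these signs. The part of these measures in the results was not tested.

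Among the member enzymes of retinoic acid synthesis (Rdh10, Aldh1a1 and Aldh1a2), none was called in a comparison of 2 pools. Aldh1a1 (1387022_at), the cytosolic retinaldehyde dehydrogenase, read 12.45, 12.50 and 12.50 in SD and 12.51, 12.52 and 12.47 in PCK. It read 12.83, 12.83 and 12.79 in FHH and 12.98, 12.95 and 12.98 in FHH.Pkhd1. The SD and PCK arrays overlapped, both FHH-background pools lay above them, and FHH.Pkhd1 lay above FHH. The difference was -0.33 ± 0.035 in SD minus FHH (limma adjusted p = 1.7e-05) and -0.47 ± 0.035 in PCK minus FHH.Pkhd1 (limma adjusted p = 4.63e-07), 1.26-fold and 1.39-fold and so under the fold limit. FHH.Pkhd1 minus FHH was 0.15 ± 0.035 (limma adjusted p = 0.0079), and PCK minus SD was 0.018 with a 95% interval of -0.057 to 0.094.

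Adrenal cortex markers, like Aldh1a1, overlapped between SD and PCK, were higher in FHH and were highest in FHH.Pkhd1. Their mean over the 4 tested genes (Star, Cyp11a1, Cyp21a1, Hsd3b1) ran from 5.73 to 5.76 in SD, 5.65 to 5.81 in PCK, 7.04 to 7.16 in FHH and 7.90 to 8.02 in FHH.Pkhd1. All 4 were called lower in PCK than in FHH.Pkhd1 (4.15% of all genes were). Of the 4, 3 were called higher in FHH.Pkhd1 than in FHH (0.982% of all genes). Of the defining markers Cyp11b1, of corticosterone synthesis, was below the detection level in all pools, and Cyp11b2 was not analysed here. Their part in the Aldh1a1 levels was not tested.

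Aldh1a2 (1368003_at), the main retinaldehyde dehydrogenase of the early embryo, stood highest in FHH. Its values were 7.86, 7.95 and 7.90 in SD, 8.26, 8.03 and 7.99 in PCK, 8.43, 8.41 and 8.45 in FHH and 7.84, 8.02 and 8.05 in FHH.Pkhd1. The pools had the order of the beta-actin measure above, whose part was not tested. FHH overlapped no other pool, whereas FHH.Pkhd1 overlapped both SD and PCK, and the first PCK array lay above the other two. FHH.Pkhd1 was below FHH (-0.46 ± 0.072, 1.38-fold, limma adjusted p = 0.000758) and SD was below FHH (-0.53 ± 0.072, 1.44-fold, limma adjusted p = 0.000149), both under the fold limit. PCK minus SD was 0.19 ± 0.072 (limma adjusted p = 0.0638). Stroma markers, of 6 genes, had a mean of 9.93 to 9.98 in FHH and 10.04 to 10.06 in FHH.Pkhd1. Of the 6, 4 were above zero in FHH.Pkhd1 minus FHH. Their part in the Aldh1a2 levels was not tested.

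Rdh10 (1384391_at), which makes retinaldehyde, was at 8.34, 8.41 and 8.38 in SD, 8.33, 8.37 and 8.40 in PCK, 8.20, 8.05 and 8.11 in FHH and 8.16, 8.06 and 8.14 in FHH.Pkhd1. It split by background: the SD and PCK arrays overlapped, the FHH and FHH.Pkhd1 arrays overlapped, and each of the first was above each of the second. SD minus FHH was 0.26 ± 0.046 (1.19-fold, limma adjusted p = 0.00117) and PCK minus FHH.Pkhd1 was 0.25 ± 0.046 (1.19-fold, limma adjusted p = 0.000852). The Pkhd1 comparisons were near zero, with 95% intervals of -0.11 to 0.093 on the SD side and -0.10 to 0.10 on the FHH side. Its other probe set, 1390079_at, lay between 4.39 and 4.91 on all arrays, below the detection level, and was not tested.

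Dhrs3 (1373240_at), which returns retinaldehyde to retinol and is itself induced by retinoic acid, was at 9.33, 9.29 and 9.28 in SD and 9.18, 9.28 and 9.19 in PCK. FHH read 9.48, 9.33 and 9.34, and FHH.Pkhd1 read 9.52, 9.43 and 9.47. The pools lay in the order PCK, SD, FHH, FHH.Pkhd1, with FHH overlapping both SD and FHH.Pkhd1. PCK minus FHH.Pkhd1 was -0.26 ± 0.048 (1.19-fold, limma adjusted p = 0.000914). PCK minus SD was -0.083 (95% interval -0.19 to 0.022) and FHH.Pkhd1 minus FHH was 0.094 (-0.010 to 0.20).

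Rara (1368176_at), the retinoic acid receptor alpha gene, was at 7.14, 7.30 and 7.15 in SD and 7.55, 7.40 and 7.52 in PCK. Its arrays were at 7.28, 7.27 and 7.38 in FHH and 7.25, 7.32 and 7.29 in FHH.Pkhd1. PCK lay above the other 3 pools, which overlapped one another. PCK minus SD was 0.29 ± 0.056 (1.22-fold, limma adjusted p = 0.00184) and PCK minus FHH.Pkhd1 was 0.20 ± 0.056 (limma adjusted p = 0.0104), both under the fold limit. Crabp2 (1370391_at), the carrier of retinoic acid to its receptor, was read at 5.18, 4.93 and 5.06 in SD, 5.22, 5.28 and 5.21 in PCK, 5.58, 5.57 and 5.58 in FHH and 5.52, 5.43 and 5.47 in FHH.Pkhd1. These lie below the detection level on every array, and no test was made.

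PCK was set against SD, the stock that it came from. These are different strains, so other genetic differences cannot be told apart from the Pkhd1 mutation. Of the 7 member genes tested 2 were called, against 3.78% of all 10891 tested genes. Because the members were chosen with earlier results of these data known, such shares here and below are a description and no test of enrichment. Rarres1 was the 1 gene higher in PCK (1.97% of all genes were) and Cyp26b1 the 1 gene lower (1.85%). The arrays did not overlap for 5 of the 8 probe sets, against 45.1% of all tested probe sets. The median difference was 0.0052 over the members and -0.0091 over all tested probe sets, and the median size was 0.16 against 0.10.

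FHH.Pkhd1 against FHH asks what the chromosome 9 segment changes on the other background. Again 2 of 7 member genes were called, against 2.16% of all genes. Cyp26b1 was higher in the congenic (0.982% of all genes were) and Rarres1 lower (1.18%). The arrays of 4 probe sets did not overlap (37.4% of all tested), and the median size of the difference was 0.21 against 0.086 over all. This comparison shares no array with PCK minus SD, so its difference from that one could be tested.

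In that test, (PCK minus SD) minus (FHH.Pkhd1 minus FHH), 3 of 7 member genes were called, against 7.44% of all genes. Of them 2 were above zero (3.53% of all genes were) and 1 was below (3.97%). Rarres1 stood at 1.40 ± 0.10 (95% interval 1.18 to 1.63, limma adjusted p = 1.46e-06). Cyp26b1 stood at -2.09 ± 0.16 by 1384392_at (-2.43 to -1.74, limma adjusted p = 1.83e-06) and at -0.40 ± 0.16 by 1376667_at (limma adjusted p = 0.0784). Aldh1a2 was called at 0.65 ± 0.10 (0.43 to 0.87, limma adjusted p = 0.000504), but not without PCK replicate 1, where it was 0.57. Rara gave 0.31 ± 0.079 (limma adjusted p = 0.011), under the fold limit.

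PCK against FHH.Pkhd1 sets the same mutation on its 2 backgrounds side by side, and SD against FHH sets the strains without it. These share their arrays with the comparisons above. In PCK minus FHH.Pkhd1 2 of 7 member genes were called, against 7.67% of all genes, Rarres1 higher (3.55% of all) and Cyp26b1 lower (4.15%). In SD minus FHH the same 2 genes were called, against 4.21% of all, both of them higher in SD (2.11% of all genes were higher and 2.13% lower). The arrays did not overlap for 7 probe sets in the first (59.1% of all) and 5 in the second (48.3%). The median size was 0.30 in both, against 0.16 and 0.11 over all tested probe sets.

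**Figure D2:**
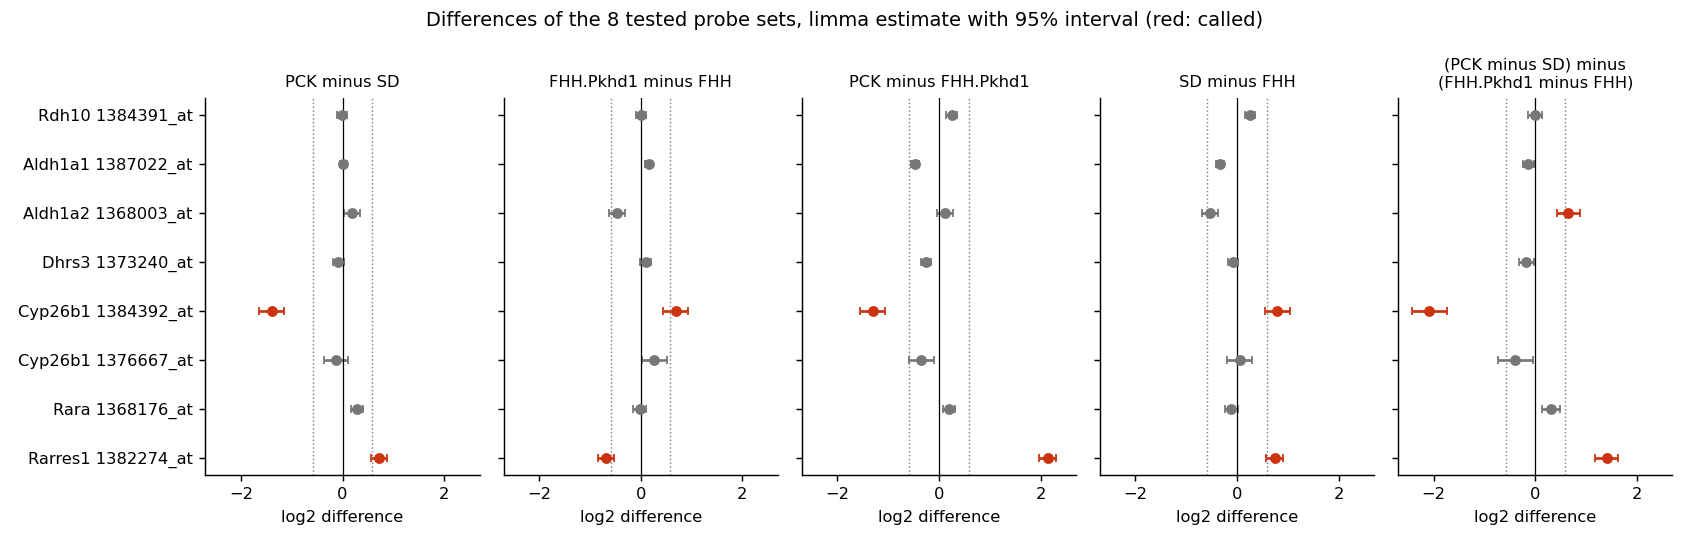
Log2 differences of the 8 tested member probe sets in 5 comparisons, as limma estimates (points) with 95% intervals (bars); red marks called differences and dotted lines the 1.5-fold limit. Rarres1 and one Cyp26b1 probe set pass the limit in every panel, on opposite sides of zero except in SD minus FHH, and Aldh1a2 passes it only in the last panel.

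Other genes of the retinoid pathway were taken from lists of 65 genes in 6 groups, of which 41 genes were tested. These lists too were chosen with earlier results of these data known, so their counts are a description. A gene was counted where any of its probe sets was called. In PCK minus SD 4 were called higher and 4 lower (3.78% of all genes were called), and in the difference of the Pkhd1 comparisons 5 and 5 (7.44%). PCK minus FHH.Pkhd1 had 3 higher and 1 lower (7.67%), and SD minus FHH had 4 and 3 (4.21%). In FHH.Pkhd1 minus FHH limma called 0 of 41, against 2.16% of all genes. There 14 of the 41 had a limma adjusted p under 0.05, which 25.5% of all tested genes had. The median over their probe sets was -0.0067 in PCK minus SD and 0.030 for the congenic minus FHH.

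In uptake and storage, 2 of 9 tested genes were called higher in PCK than in SD (1.97% of all genes were). Stra6, the receptor that takes up retinol from its plasma carrier, read 8.89, 9.02 and 9.08 in SD, 9.51, 9.74 and 9.53 in PCK, 9.50, 9.64 and 9.60 in FHH and 9.07, 9.08 and 9.17 in FHH.Pkhd1 (1390525_a_at). By this probe set PCK and FHH were high and overlapped, and SD and FHH.Pkhd1 were low and overlapped. By 1376962_at SD alone was low, with pool means of 7.49 in SD, 8.10 in PCK, 8.07 in FHH and 7.98 in FHH.Pkhd1 (FHH.Pkhd1 minus FHH -0.081, limma adjusted p = 0.192). By 1390525_a_at it rose in PCK against SD by 0.59 ± 0.069 (1.51-fold, limma adjusted p = 4.11e-05), and FHH.Pkhd1 minus FHH was -0.47 ± 0.069 (limma adjusted p = 0.00048, 1.39-fold). The difference between these was called at 1.07 ± 0.097 (limma adjusted p = 7.64e-06). Of the 5 Stra6 probe sets, 3 were called in that difference, and 1381606_at had the other sign (-0.17). In PCK minus SD 2 of the 5 were called, 1376962_at (0.61) and 1390525_a_at. The latter lost its call without SD replicate 1 (0.54) or PCK replicate 2 (0.52), and the mean of all Stra6 probe sets was 0.38 there.

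Lpl, the lipase that frees fatty acids and retinyl esters from lipoproteins, was at 9.05 to 9.11 in SD and at 10.29 to 10.82 on all arrays of the other pools. It rose in PCK against SD by 1.27 ± 0.041 (limma adjusted p = 8.29e-10) and was lower in SD than in FHH (-1.48 ± 0.041, limma adjusted p = 1.94e-10). FHH.Pkhd1 minus FHH was 0.24.

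Among 11 tested genes of the alcohol and aldehyde steps, Akr1b8 rose and Rdh16 fell in PCK against SD, and the probe sets of Akr1b10 differed in sign. Akr1b8, an aldo-keto reductase, was at 6.62, 6.18 and 6.34 in SD and at 8.82, 8.91 and 8.82 in PCK (2.47 ± 0.087, limma adjusted p = 1.91e-09), with FHH and FHH.Pkhd1 between 8.24 and 8.39. Rdh16, a microsomal retinol dehydrogenase, had the reverse pattern, at 8.42, 8.68 and 8.51 in SD and between 7.38 and 7.78 elsewhere (PCK minus SD -1.10 ± 0.077, limma adjusted p = 5.72e-07). Akr1b10 was called lower in PCK than in SD by 1382034_at (-0.74), but its other probe set, 1395190_at, stood at 0.53 there and at 1.11 in PCK minus FHH.Pkhd1, so no direction is given for the gene.

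The breakdown list had 1 tested gene, Cyp2s1, an extrahepatic cytochrome P450 that oxidises retinoic acid. Its pool means were 6.54 in SD, 6.21 in PCK, 6.16 in FHH and 6.52 in FHH.Pkhd1, so SD and FHH.Pkhd1 were the high pools as for Cyp26b1. Neither Pkhd1 comparison reached the fold limit (-0.32 and 0.36), but their difference did (-0.68 ± 0.10, limma adjusted p = 0.000384). In the binding list no gene was called. Fabp5, a fatty acid binding protein that also delivers retinoic acid, had the larger differences, with pool means of 10.06 in SD, 9.78 in PCK, 10.32 in FHH and 10.17 in FHH.Pkhd1 (PCK minus FHH.Pkhd1 -0.39, limma adjusted p = 1.12e-05).

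Of 10 tested receptors and cofactors, Rxrg and Ncor1 were called, both of them higher in PCK than in FHH.Pkhd1 (3.55% of all genes were). Rxrg, a partner receptor of the retinoic acid receptors, was at 7.29, 7.46 and 7.40 in SD, 7.27, 7.31 and 7.39 in PCK, 6.99, 7.03 and 7.13 in FHH and 6.49, 6.56 and 6.42 in FHH.Pkhd1. SD and PCK overlapped, and FHH.Pkhd1 lay lowest. PCK exceeded FHH.Pkhd1 by 0.84 ± 0.059 (1.78-fold, limma adjusted p = 3.13e-07), and FHH.Pkhd1 minus FHH was -0.56 (1.47-fold, limma adjusted p = 4.42e-05), just under the limit. The corepressor gene Ncor1 rose in PCK against SD by 1.30 ± 0.080 by 1372102_at (limma adjusted p = 1.85e-07), while its other 2 probe sets gave 0.24 and 0.26.

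Of 8 tested response genes, Tgm2 and Bhlhe40 were called lower in PCK than in SD (1.85% of all genes were). None was called higher (1.97% of all genes). Tgm2, the retinoid-inducible tissue transglutaminase, was at 11.55, 11.56 and 11.54 in SD, 10.67, 10.69 and 10.67 in PCK, 10.64, 10.66 and 10.58 in FHH and 10.80, 10.84 and 10.78 in FHH.Pkhd1 (1369943_at). SD stood above all other pools. PCK minus SD was -0.87 ± 0.035 (limma adjusted p = 4.74e-09), or -1.13 by its second probe set, and SD minus FHH was 0.93 ± 0.035 (limma adjusted p = 2.31e-09). The difference of the Pkhd1 comparisons was -1.06 for Tgm2.

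Bhlhe40, a transcriptional repressor, was lower in PCK than in SD (-0.73 ± 0.053, limma adjusted p = 8.47e-07) and than in FHH.Pkhd1 (-1.44 ± 0.053, limma adjusted p = 1.07e-09). Rarres2, which encodes the adipokine chemerin, was 1.74-fold higher in SD than in FHH (0.80 ± 0.041, limma adjusted p = 3.44e-08) and stood at -0.20 in PCK minus SD. Pdgfa was called only in the difference of the Pkhd1 comparisons (-0.64 ± 0.077, limma adjusted p = 7.48e-05).

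**Figure D3:**
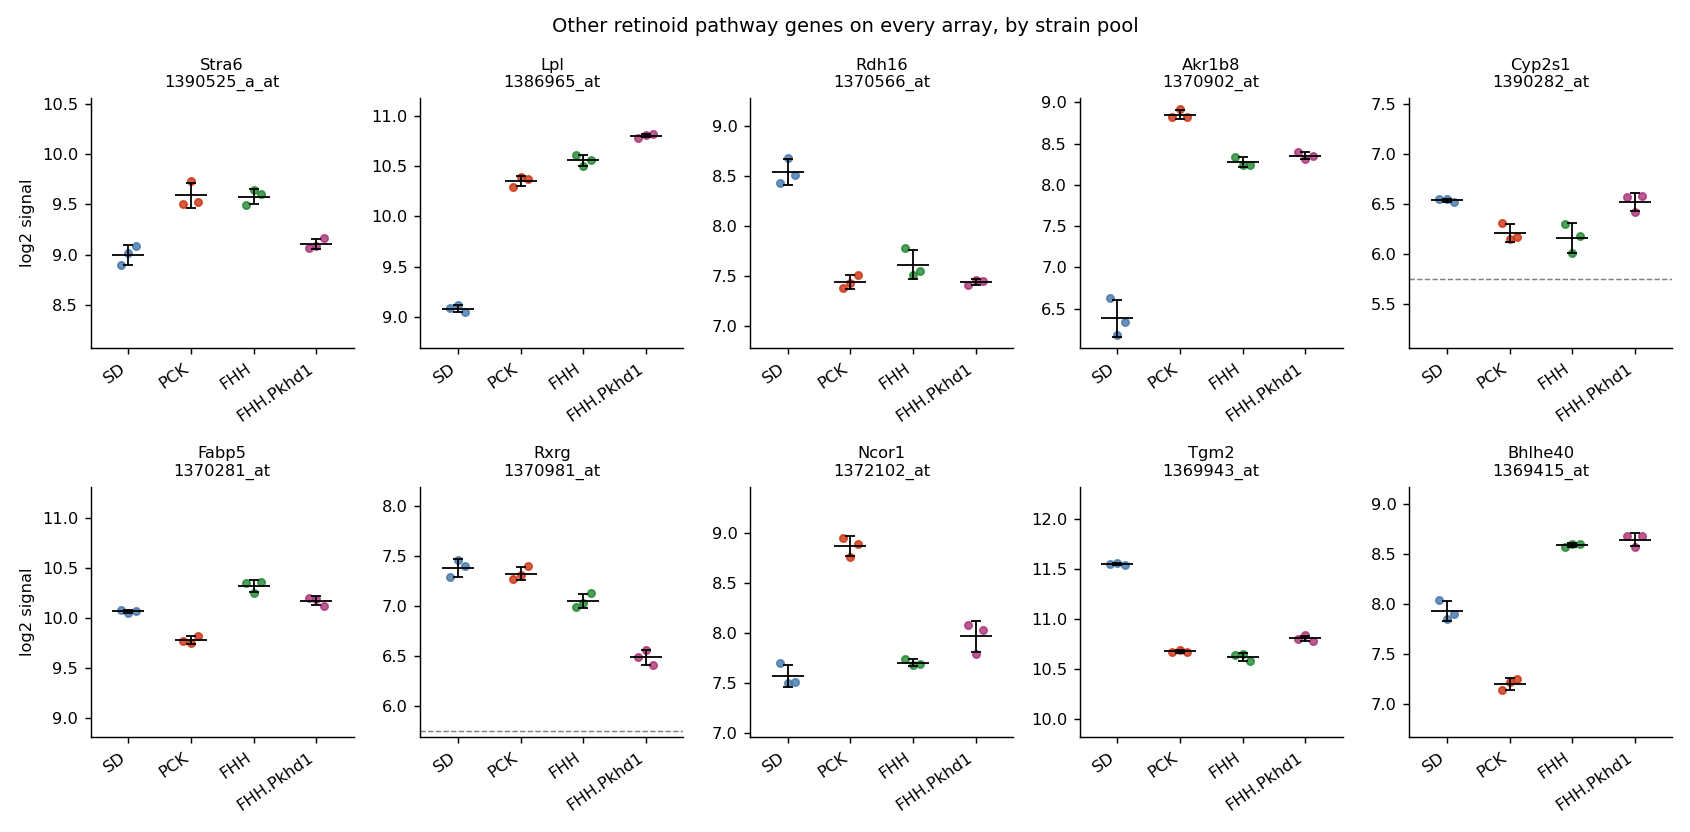
Log2 signal of 10 probe sets of other retinoid pathway genes on each of the 12 arrays (points), by strain pool, with the pool mean and SD over 3 arrays (bars); each panel has its own range and the dashed line is the detection level. SD stands apart from the other 3 pools for Lpl and Akr1b8 (low) and Rdh16 and Tgm2 (high), while the Stra6 probe set shown is high in PCK and FHH.

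The probe sets of other genes closest in pattern were found by the root mean square difference of 4 pool means, each centred on its own mean. With 4 pools many genes can lie close, so this is a description. For Rarres1 they were Hao1, a hydroxyacid oxidase (0.13), Tmem252 (0.14) and Apoh, a plasma glycoprotein gene (0.16). Hao1 had pool means of 7.36 in SD, 7.94 in PCK, 6.26 in FHH and 5.75 in FHH.Pkhd1. For Cyp26b1 (1384392_at) they were Ccn1, a matricellular protein gene (0.16), P2rx4, an ATP-gated channel (0.21), and Slc25a15, a mitochondrial ornithine carrier (0.22). Ccn1 was at 8.03 in SD, 6.81 in PCK, 7.51 in FHH and 7.80 in FHH.Pkhd1, the order of Cyp26b1.

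**Figure D4:**
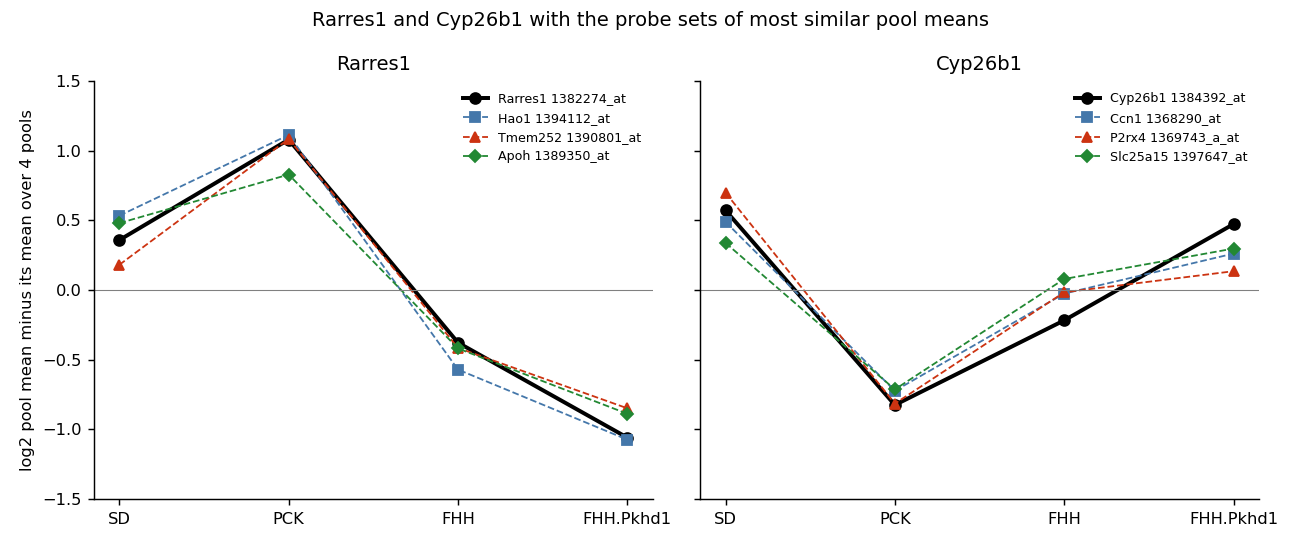
Pool means of Rarres1 (left) and Cyp26b1 (right) in black with the 3 probe sets of other genes closest to each in colour, as log2 signal minus the mean over the 4 pools; lines only join the points of a probe set. Rarres1 and its neighbours are highest in PCK and lowest in FHH.Pkhd1, and Cyp26b1 and its neighbours are highest in SD and lowest in PCK.

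Marker lists moved between the same pools. Tubule injury markers (Havcr1, Lcn2, Clu, Spp1 and Vcam1, all 5 tested) had a mean of 10.18 to 10.21 in PCK and 9.06 to 9.09 in SD. It was 8.95 upwards in FHH (all arrays below SD) and 8.72 to 8.79 in FHH.Pkhd1. This mean had the order of Rarres1, but none of the 5 markers alone had it. Havcr1 (-0.90) and Lcn2 (-0.025) were lower in SD than in FHH. Clu (0.23) and Spp1 (0.24) were higher in FHH.Pkhd1 than in FHH, and Vcam1 was lower in PCK than in SD (-0.20). Of the 5 markers, 2 were called higher in PCK than in SD (1.97% of all genes were). Havcr1 was the 1 called lower in the congenic than in FHH (1.18% of all genes). The mean of the stroma markers was lowest in PCK, at 9.42 to 9.46 against 9.56 to 9.64 in SD. Of the 6 genes, 3 were called lower in PCK than in FHH.Pkhd1 (4.15% of all genes were). Pdgfra went the other way, at 0.29 in PCK minus SD and 0.28 in PCK minus FHH.Pkhd1. Dcn was also higher in PCK than in SD (0.22). Collecting duct markers ran from 9.74 to 9.75 in SD, 10.17 to 10.20 in PCK, 9.98 to 10.01 in FHH and 10.34 to 10.36 in FHH.Pkhd1. The mean of the 4 urothelium markers tested was lowest in SD (5.96 to 6.10) and highest in FHH (6.52 to 6.60), as Aldh1a2 was. Upk1a alone was highest in PCK and lowest in FHH.Pkhd1. In the difference of the Pkhd1 comparisons 3 of 4 were called higher (3.53% of all genes were). The part of these cells in the member values was not tested.

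**Figure D5:**
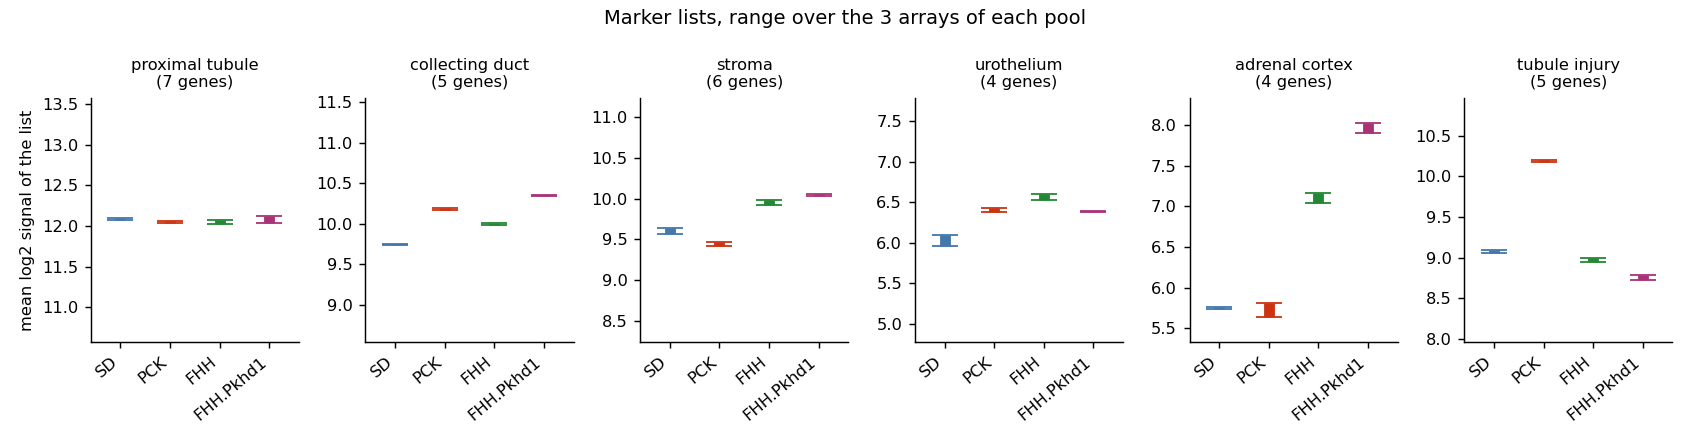
Mean log2 signal of 6 marker lists, shown as the range over the 3 arrays of each strain pool (bars from the lowest to the highest array; all panels span the same height). Adrenal cortex markers reach 8.02 in FHH.Pkhd1 against at most 5.81 in SD and PCK, and tubule injury markers reach 10.21 in PCK. The mean of the proximal tubule markers stays between 12.02 and 12.12.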

How the data were processed

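Kidney RNA of 4 rat strains, 1 pool per strain, was labelled with the 3' IVT Express kit from 100 ng and read on 3 arrays per pool, per the labels' protocols. The authors deposited log2 signals, and the submitters' processing notes name RMA and Partek 6.2 without their order. The sources used here do not state a joint normalization of all arrays, and the values were used as deposited.

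Of 31099 probe sets, 57 were controls. Of the other 31042, 20826 carried 1 gene symbol, 436 several and 9780 none, and 20758 of the single symbols matched a current record of the GRCr8 assembly. The 19359 probe sets whose highest pool mean reached the detection level were fitted with limma 3.58.1 in R 4.3.3, 1 mean per pool over all 12 arrays, with moderated variances and Benjamini-Hochberg adjustment over all of them in each of 5 comparisons. The number of arrays limits the precision, and the depth behind an array signal is not a count. The procedure was tested on simulated data. Figures were drawn with matplotlib 3.10.9.

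The members and lists were chosen with earlier results of these data known. Named were all members, listed pathway genes with a called probe set, the largest difference of a list with none, and the 3 closest patterns for members spanning 1.5-fold. Alternatives covered the filter, probe sets per gene, fold limit, variance model, arrays fitted, normalization, replicate number and each array left out.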

Additional observations from a re-analysis of the deposited data

Results flagged for a closer look

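For 3 member genes PCK minus SD differed from FHH.Pkhd1 minus FHH, by a test of the difference itself in limma. Rarres1 (1382274_at) gave 1.40 (log2, limma adjusted p = 1.46e-06): all 3 PCK arrays were above all SD arrays, and all 3 FHH.Pkhd1 arrays below all FHH arrays. Cyp26b1 (1384392_at) gave -2.09 (limma adjusted p = 1.83e-06), with the opposite order in both pairs, and its second probe set gave -0.40 (limma adjusted p = 0.0784). Aldh1a2 (1368003_at) gave 0.65 (limma adjusted p = 0.000504), with PCK above SD and FHH.Pkhd1 below FHH on every array. For Aldh1a2 neither PCK minus SD (0.19) nor FHH.Pkhd1 minus FHH (-0.46) was called, and the 0.65 lost its call without PCK replicate 1 (0.57). Each pool is a single RNA pool, so strain and pool cannot be told apart. Neither comparison is of the Pkhd1 mutation alone, as PCK and SD are different strains and the congenic holds a chromosome 9 segment.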

How the results depend on the processing

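Results were computed under 20 to 24 other settings each, fewer where a setting left out the probe set or could not apply to the difference of the Pkhd1 comparisons, here called the crossed difference. Of 937 member values, 901 kept their direction and side of the call, 9 lost the call, 12 gained it and 15 changed sign, the last only for differences that were not called. For other retinoid genes 781 of 805 values stayed and 24 lost the call.

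Member genes called were 3 in the crossed difference and 2 in each of the other comparisons. With no fold limit they were 4 in FHH.Pkhd1 against FHH, where 25.5% of all tested genes were called. They were 6 in PCK against FHH.Pkhd1 and 5 in SD against FHH. There 10017 and 6756 of all 19359 tested probe sets were called, which are counts of probe sets and not of genes. With a 2-fold limit they were 1 in PCK against SD, 0 in FHH.Pkhd1 against FHH and 0 in SD against FHH. With the mean of probe sets, Cyp26b1 was lost in FHH.Pkhd1 against FHH and in SD against FHH, leaving 1 each.

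Other retinoid genes called were 8 in PCK against SD, 0 in FHH.Pkhd1 against FHH, 4 in PCK against FHH.Pkhd1, 7 in SD against FHH and 10 in the crossed difference. With no fold limit the first 4 of these became 18, 14, 27 and 23 of 41 tested genes. At that setting 6299, 4061, 10017 and 6756 of all 19359 tested probe sets were called. These count probe sets, whereas a gene counts if any of its probe sets is called, so they are not directly comparable. In FHH.Pkhd1 against FHH the share over all genes was 25.5%. With a 2-fold limit PCK against SD had 5, PCK against FHH.Pkhd1 had 2, SD against FHH had 3 and the crossed difference 5. PCK against FHH.Pkhd1 had 2 with 1 probe set per gene and with their mean. Leaving out single arrays gave 2 to 3 member genes and, for the other genes, 0 to 1 in FHH.Pkhd1 against FHH (Rxrg, without FHH replicate 1 or FHH.Pkhd1 replicate 2).

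Over all tested probe sets 676, 368, 1337, 721 and 1246 were called, in the order of comparisons just given. They became 339, 138, 635, 361 and 546 with 1 probe set per gene, and 299, 112, 559, 317 and 481 with the mean of probe sets, where fewer features were tested. With no fold limit they were 6299, 4061, 10017, 6756 and 5821, and with 2-fold 221, 73, 436, 230 and 370.

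Sign changes were those of Rdh10 (1384391_at) with the mean of its probe sets (0.097 in PCK against SD, 0.028 in FHH.Pkhd1 against FHH and 0.069 in the crossed difference) and with quantile normalization (0.011 in the crossed difference). With single arrays left out, Rdh10 ranged from -0.027 to 0.0097, -0.036 to 0.041 and -0.049 to 0.028 in these. Rara ranged from -0.040 to 0.014 in FHH.Pkhd1 minus FHH, and Cyp26b1 (1376667_at) from -0.085 to 0.16 in SD minus FHH. The mean for Rdh10 takes in 1390079_at, which was below the detection level. Its pool means were 4.61 in SD, 4.81 in PCK, 4.62 in FHH and 4.67 in FHH.Pkhd1. The cause of the other sign changes was not tested.

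Same-numbered arrays of different pools had a median correlation of deviations of -0.015 (18 pairs, -0.33 to 0.35, 6 over 0.1). Differently numbered arrays had a median of -0.0081 (36 pairs, 14 over 0.1), so the number was not taken to pair arrays. All 6 same-numbered pairs over 0.1 were between pools other than PCK. With the replicate number as a block, 676, 368, 1337, 721 and 1244 probe sets were called, and the member and other retinoid counts were as above.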
